A study of Mus musculus with 16 samples.

Results

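The LSK and myeloid progenitor (MP) compartments of unirradiated Parp-2-/- bone marrow were compared across genes. The comparison takes the 2 arrays labelled Parp-2-/- LSK and the 2 labelled Parp-2-/- MP, chosen by their titles, out of 16 arrays in the series. All mice had the C57BL/6J strain background and their ages are not stated in the labels. LSK cells are lineage-negative, Sca1-positive and c-Kit-positive bone marrow cells, and MP cells are lineage-negative, Sca1-negative and c-Kit-positive. The other 12 arrays hold WT LSK and WT MP cells without irradiation, and both cell types of both genotypes 2.5 h after 5 Gy of gamma irradiation, with 2 pools in each of the 8 groups. Each pool came from at least 3 mice and gave 1 Affymetrix Mouse Gene 1.0 ST array, so an animal's own value is not seen. Parp-2-/- mice lack Parp-2 in the germ line, in every cell of the marrow and its surroundings, so no difference can be assigned to the sorted cells alone. Both sorted fractions are mixtures of cell types, and fewer cells of a type and less RNA per cell cannot be told apart as the source of a lower level.

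LSK cells include the haematopoietic stem cells and the multipotent progenitors that follow them, among them lymphoid-primed progenitors that have begun to transcribe genes of the B and T lineages. MP cells include the common myeloid progenitor and its offspring, the granulocyte-macrophage progenitors and the megakaryocyte-erythroid progenitors. Stem cell transcription factors of the HOX, MEIS and PAR bZIP families mark the first compartment, while GATA1 and KLF1 drive red cell genes and PU.1 and C/EBP factors drive granulocyte and monocyte genes in the second. Parp-2 is a nuclear enzyme that attaches ADP-ribose to proteins at DNA breaks.

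The 4 arrays had median levels of 4.745 to 4.867 on the log2 scale of the deposited values. Across all rows of the table, the 2 Parp-2-/- LSK pools correlated at r = 0.948 and the 2 Parp-2-/- MP pools at r = 0.980, while LSK and MP arrays of that genotype correlated at r = 0.946 to 0.955. The LSK pools thus differed from each other about as much as from MP pools by this measure, and the median absolute difference between pools was 0.217 in Parp-2-/- LSK and 0.152 in Parp-2-/- MP, against 0.232 between the LSK and MP means. With 2 pools a group, the number of arrays limits the precision, and the median standard error of a difference was 0.207.

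Parp2 itself was read first, as a check of the labels. Its level was 5.70 and 6.43 in Parp-2-/- LSK and 6.74 and 7.11 in Parp-2-/- MP, against 7.52 and 7.40 in WT LSK and 8.40 and 7.98 in WT MP. Every Parp-2-/- array lay below every WT array of either cell type, and the same held among the irradiated arrays. Which exons the deletion removes and the probes read is not given in the sources used here, so the remaining signal says nothing of protein. Between the Parp-2-/- compartments Parp2 differed by -0.86 ± 0.26 (SE, n = 2 pools each) with an adjusted p of 0.0944 in limma, above the threshold of 0.05. The sort markers gave a mixed check. Ly6a, which encodes Sca1, was not analysed here because no row of the table names it alone. Kit, the gene of the c-Kit receptor by which both fractions were selected, had 9.23 and 9.46 in LSK and 8.97 and 9.04 in MP, a difference of 0.34 ± 0.17 (adjusted p = 0.323, limma). Cd34, a surface marker of progenitors, had 9.76 and 9.80 in LSK against 9.20 and 8.41 in MP (0.97 ± 0.24, adjusted p = 0.0446), a call kept in 1 of the 4 fits that left out a pool. Fcgr3, an Fc receptor gene that marks granulocyte-macrophage progenitors, had 4.45 and 4.96 in LSK against 6.76 and 6.51 in MP (-1.93 ± 0.25, adjusted p = 0.0019).

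Without Parp-2, LSK and MP cells differed at 768 of 22961 tested rows (3.34%), of which 190 were higher in LSK (0.827% of all rows tested) and 578 were lower (2.52%). A row is a probe set with at least 1 gene symbol, and it was called when its p from limma, adjusted by the Benjamini-Hochberg method over all tested rows, was under 0.05. The median difference among rows called higher was 1.04 and among rows called lower -1.14, both log2 differences of LSK minus MP. Of the called rows, 489 differed by at least 2-fold, 105 of them higher and 384 lower in LSK. The direction was uneven among called rows, whereas the median over all tested rows was 0.0857. After the arrays were quantile normalised once more, 177 rows were higher and 342 lower in LSK, so the lower share was 65.9% against 75.3% before. Levels under the array median were taken as not shown above background. Where the LSK or the MP values of a called gene lay there, its log2 difference may fall short of the true one and its place in an order of size is open to that. Among genes named below this held for the LSK values of Add2, Ccnb1ip1, Cldn13, Epor, Gda, Kel, Mt2, Plpp1, Rhag, Rhd, S100a8, Slc19a2, Tlcd4 and Tspan8. It also held for the MP values of Cd5, Emcn, Entpd1, Iigp1, Mcoln2, Wfdc17 and 1 row of Iftap. Dropping Parp-2-/- MP pool 2 left 88 called rows, dropping Parp-2-/- MP pool 1 left 280 and dropping Parp-2-/- LSK pool 1 left 452. A fit to the 4 arrays alone, with no other groups to estimate the spread, called 119. The arrays of the 2 compartments did not overlap at 12715 rows (55.4%), so a lack of overlap by itself was common. It held for all 768 called rows, so for a called gene it is no further support.

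Of the 15 largest rises in LSK, Dntt, Flt3 and Lsp1 were on the lymphoid priming list and Hlf and Mecom on the stem cell list. Dntt, terminal deoxynucleotidyl transferase, which adds bases at immune receptor joins, had 9.07 and 9.51 in LSK against 5.58 and 4.76 in MP. Its difference of 4.13 ± 0.34 (17.5-fold, adjusted p = 0.000155) was the largest among called rises that met the naming rule, and WT cells gave 3.55. Hlf, a PAR bZIP transcription factor of stem cells, had 8.93 and 8.74 in LSK against 6.40 and 6.20 in MP, with the pools of each compartment close together (2.54 ± 0.23, 5.82-fold, adjusted p = 0.000326). Flt3, the cytokine receptor of lymphoid-primed multipotent progenitors, had 8.99 and 8.82 in LSK against 6.96 and 6.36 in MP (2.24 ± 0.24, adjusted p = 0.000519). Mecom, a stem cell transcription factor, had 7.23 and 6.50 in LSK against 5.11 and 4.13 in MP. Its pools were farther apart, the difference of 2.25 ± 0.48 had an adjusted p of 0.0249, and its other row in the table differed by 0.413. No LSK array of these 4 genes overlapped an MP array, as held for every called row.

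The other 11 of the 15 largest rises differed by 2.00 to 3.42. Emcn encodes endomucin, a sialoglycoprotein of endothelium and of stem cells, with 6.68 and 5.94 in LSK against 3.75 and 3.17 in MP. Wfdc17, a whey acidic protein family member, had 8.18 and 7.50 in LSK against 4.58 and 4.27 in MP. For both genes, with log2 differences of 2.85 ± 0.35 and 3.42 ± 0.45, the MP values lay below the median of their arrays. Gimap6, a GTPase of lymphocytes, differed by 2.70 and Lsp1, a leukocyte actin-binding protein, by 2.24. The cation channel gene Mcoln2, also below the array medians in MP, differed by 2.62, the lipoprotein receptor gene Vldlr by 2.22 and the myosin light chain gene Myl10 by 2.91. Gcnt2, a glycosyltransferase of the I blood group antigen, differed by 2.07, and Entpd1, which encodes the ectonucleotidase CD39, by 2.00. The MP values of Entpd1 lay below the array medians, and its call was lost with any 1 of the 4 pools left out (highest adjusted p = 0.321) and after quantile normalisation (adjusted p = 0.0958). Nr4a1, an orphan nuclear receptor of the immediate early class, and Plk2, a polo-like kinase, differed by 2.49 and 2.31, with adjusted p of 0.0178 and 0.0373. The MP values of these last genes were far apart, 6.01 and 4.77 for Nr4a1 and 6.26 and 4.42 for Plk2, and neither was called once MP pool 2 or LSK pool 1 was left out.

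Red cell genes led the opposite end. Car1, carbonic anhydrase 1, an early gene of erythroid commitment, had 6.59 and 6.68 in LSK against 11.21 and 11.53 in MP (-4.74 ± 0.49, 26.8-fold lower in LSK, adjusted p = 0.000519). Cldn13, a claudin of mouse erythroid cells, had 3.24 and 3.62 in LSK against 8.0005 and 8.58 in MP, a difference of -4.86 ± 0.48. Rhag, the Rh-associated glycoprotein of the red cell membrane, had 3.65 and 3.09 in LSK against 7.20 and 8.16 in MP (-4.31 ± 0.45). The LSK values of Cldn13 and Rhag lay below their array medians, those of Car1 above them. Ermap, an erythroblast membrane protein, differed by -3.74, Rhd, the Rh blood group antigen, also below the medians in LSK, by -3.24 and Aqp1, the water channel of red cells, by -3.09. Elane and Ms4a3, both on the granulocyte and monocyte list, were also among the 15. Elane, the neutrophil elastase of primary granules, had 5.55 and 5.79 in LSK against 8.95 and 9.03 in MP (-3.32 ± 0.35, 9.97-fold lower), and Ms4a3, a membrane protein of granulocyte-monocyte progenitors, had 5.87 and 6.11 in LSK against 9.44 and 9.28 in MP (-3.37 ± 0.36, 10.3-fold lower). Each of these genes separated the 2 compartments without overlap, as every called row did.

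**Figure D1:**
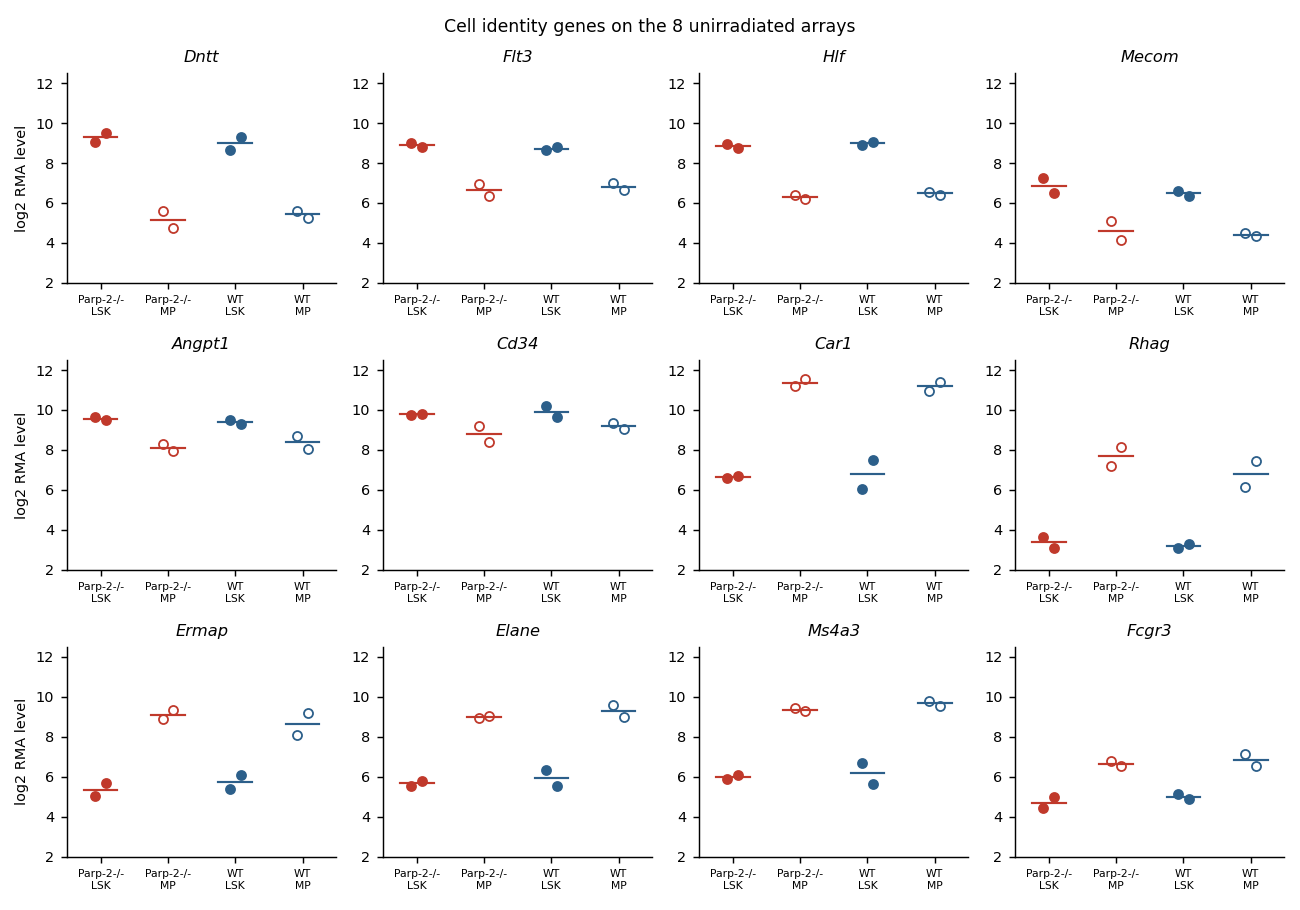
Log2 level (vertical axis) of 12 genes on the 8 unirradiated arrays, with Parp-2-/- in red and WT in blue, LSK as filled and MP as open circles, 1 point per pool and a line at the mean of 2 pools. The first 6 genes were higher and the last 6 lower in LSK than in MP, in both genotypes (for example Dntt at 9.07 and 9.51 in Parp-2-/- LSK against 5.58 and 4.76 in Parp-2-/- MP).

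The 15 largest falls also held genes outside the red cell and granulocyte classes. Mt2, a metallothionein that binds zinc, had 4.41 and 4.72 in LSK against 8.93 and 9.35 in MP (-4.57 ± 0.47). Tspan8, a tetraspanin, and Tlcd4, a TLC domain protein, differed by -4.36 and -4.16. The LSK values of all 3 genes lay below the array medians. Atp1b2, a subunit of the sodium-potassium pump, had 4.96 and 6.09 in LSK against 9.16 and 9.87 in MP (-3.98 ± 0.38). Asns, asparagine synthetase, differed by -3.18 and Gstm5, a glutathione transferase, by -3.11. For Gstm5 the WT difference was -1.49, and its test between genotypes did not pass (-1.63 ± 0.62, adjusted p = 1). The remaining one of the 15, Ccnb1ip1, is described with the comparison of genotypes.

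Of 33 haematopoietic stem cell genes with a value, 13 were called higher in Parp-2-/- LSK and 0 lower, and 32 of the 33 differences were above 0, with a median of 0.613 beside 0.0857 over all tested rows. The same list in WT cells gave 13 higher, 0 lower and a median of 0.657, beside 1.29% of all rows called higher and 3.93% called lower in WT (5.23% in all). Rbpms, an RNA-binding protein, had 7.64 and 7.59 in LSK against 6.28 and 5.69 in MP (1.63 ± 0.24). Angpt1, the angiopoietin ligand of the stem cell receptor TIE2, had 9.63 and 9.50 in LSK against 8.30 and 7.94 in MP (1.44 ± 0.22). In both genes, as in every row called higher, each LSK pool lay above each MP pool. Ltb, lymphotoxin beta, had 7.86 and 5.43 in LSK against 4.93 and 4.72 in MP, and its LSK pools were too far apart for its 1.82 ± 0.65 to pass (adjusted p = 0.157). Other members among the 20 not called, picked after their values were seen, were Procr (0.62 ± 0.19, adjusted p = 0.106 in limma), Fgd5 (0.32), Hoxb4 (0.39) and Hoxb5 (0.15). Among called members outside the naming rule, picked in the same way, were the homeobox cofactor Meis1 (1.35), the ETS factor Erg (1.02), the RNA-binding protein Msi2 (1.02) and the adhesion receptor Adgrg1 (1.37). Each pool mattered for this count: 7 of the 33 were called without MP pool 1 or without LSK pool 2, 4 without LSK pool 1 and 1 without MP pool 2, and the lowest median with any 1 of the 4 pools left out was 0.583. Among 19 HOX A and B genes, 3 were higher and 0 lower, Hoxa5 at 1.14, Hoxa9 at 0.92 and Hoxa10 at 0.86. All 19 differences were above 0 with a median of 0.355. Called genes made up 39.4% of the stem cell list and 15.8% of the HOX list, beside 3.34% of all rows. With MP pool 1 or MP pool 2 left out, 0 of the 19 were called, and with either LSK pool left out 1 was.

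Of 19 lymphoid priming genes, 7 were higher in Parp-2-/- LSK and 0 lower, with a median of 0.695. In WT cells 5 were higher, with a median of 0.493. Besides Dntt, Flt3 and Lsp1, the list held Cd27, a TNF receptor family member, with 9.51 and 9.51 in LSK against 8.13 and 7.56 in MP (1.66 ± 0.24), and Satb1, a chromatin organiser of lymphoid progenitors, with 9.39 and 9.42 in LSK against 8.25 and 7.75 in MP (1.41 ± 0.21). The LSK pools of these 2 genes agreed closely and lay above both MP pools. Cytokine receptor genes moved both ways among 25 with a value. Flt3 and Il7r, the interleukin-7 receptor, were higher, and Epor, the erythropoietin receptor, and Ifngr1, a chain of the interferon-gamma receptor, were lower. Called genes made up 36.8% of the lymphoid priming list and 16% of the cytokine receptor list, beside 3.34% of all rows. Il7r had 4.41 and 4.22 in LSK against 3.28 and 3.06 in MP, so all 4 of its values lay below the median of their arrays. Leaving out either MP pool left 1 cytokine receptor call of the 4. Without MP pool 2, 2 of the 19 lymphoid priming genes were called.

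Of 24 erythroid genes, 16 were lower in Parp-2-/- LSK and 0 higher, and 21 of the 24 differences were below 0, with a median of -1.52. WT cells gave 12 lower, 0 higher and a median of -1.12. Beyond the membrane and transport genes above, the called genes included the master regulator Gata1 (-1.52 ± 0.30), the erythropoietin receptor Epor (-1.50 ± 0.24), the transferrin receptor Tfrc (-1.92 ± 0.22) and the Kell antigen Kel (-2.87 ± 0.39), named here after their values were seen apart from Epor. Gata1 had 5.13 and 5.57 in LSK against 6.54 and 7.19 in MP. Klf1, the other red cell master factor, differed by -1.47 ± 0.38 with an adjusted p of 0.0589 and so was not called. Slc4a1, the band 3 anion exchanger of the mature red cell, had 4.68 and 4.98 in LSK against 4.73 and 4.82 in MP, and the globin genes were not analysed here. Haem synthesis and iron genes followed the erythroid list, with 5 of 17 lower, 0 higher and a median of -0.658. Called genes made up 66.7% of the erythroid list and 29.4% of the haem and iron list, beside 3.34% of all rows. Cpox, coproporphyrinogen oxidase, had 7.04 and 6.15 in LSK against 9.14 and 9.39 in MP (-2.68 ± 0.49). Alas1, the housekeeping aminolevulinate synthase, had 6.28 and 5.46 in LSK against 7.96 and 7.79 in MP (adjusted p = 0.00525). Without MP pool 2, 9 of the 24 erythroid and 0 of the 17 haem and iron genes were called, and 2 or 3 of the 17 were called without any other 1 of the 4 pools.

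On the granulocyte and monocyte list, 9 of 24 genes were called lower in Parp-2-/- LSK and 0 higher, with a median of -0.852 and 18 differences below 0. In WT cells 15 were lower, 0 higher, and the median was -1.29. Hp, haptoglobin, had 5.22 and 6.06 in LSK against 8.82 and 8.29 in MP (-2.91 ± 0.45). F13a1, coagulation factor XIII of monocytes, had 6.35 and 6.19 in LSK against 8.69 and 8.43 in MP (-2.29 ± 0.36). Both genes separated the compartments, as every called row did. The transcription factors that drive the lineage differed less: Spi1, the gene of PU.1, had 0.38 ± 0.19, Cebpa -0.32 ± 0.34 and Irf8 -0.21 ± 0.28, and none was called. Mpo, myeloperoxidase, had 11.21 and 11.21 in LSK against 11.79 and 11.65 in MP, a difference of -0.51 ± 0.16 that did not pass (adjusted p = 0.112) although it did in WT. Basophil and mast cell genes gave 2 falls of 16, Mcpt8, a basophil protease, with 5.40 and 5.29 in LSK against 7.69 and 7.15 in MP, and Hdc, histidine decarboxylase, with 5.55 and 4.47 in LSK against 7.26 and 6.86 in MP. Of 16 megakaryocyte and platelet genes 1 was lower, the zinc finger repressor Gfi1b (-0.85 ± 0.20), and the list median was 0.0294. Pf4, platelet factor 4, differed by -1.44 ± 0.40 and did not pass (adjusted p = 0.0759). The called share was 37.5% on the granulocyte and monocyte list and 6.25% on the megakaryocyte and platelet list, beside 3.34% of all rows. That of the basophil and mast cell list lay between the shares of those lists. Without MP pool 2, 4 of the 24 granulocyte and monocyte genes were called. Without MP pool 1, 0 of the 16 basophil and mast cell genes were, and without MP pool 2 or LSK pool 2 1 was. Gfi1b was called in 1 of the 4 fits that left out a pool, and it was not called after quantile normalisation (adjusted p = 0.143) or with the trended, robust step (adjusted p = 0.0612).

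**Figure D2:**
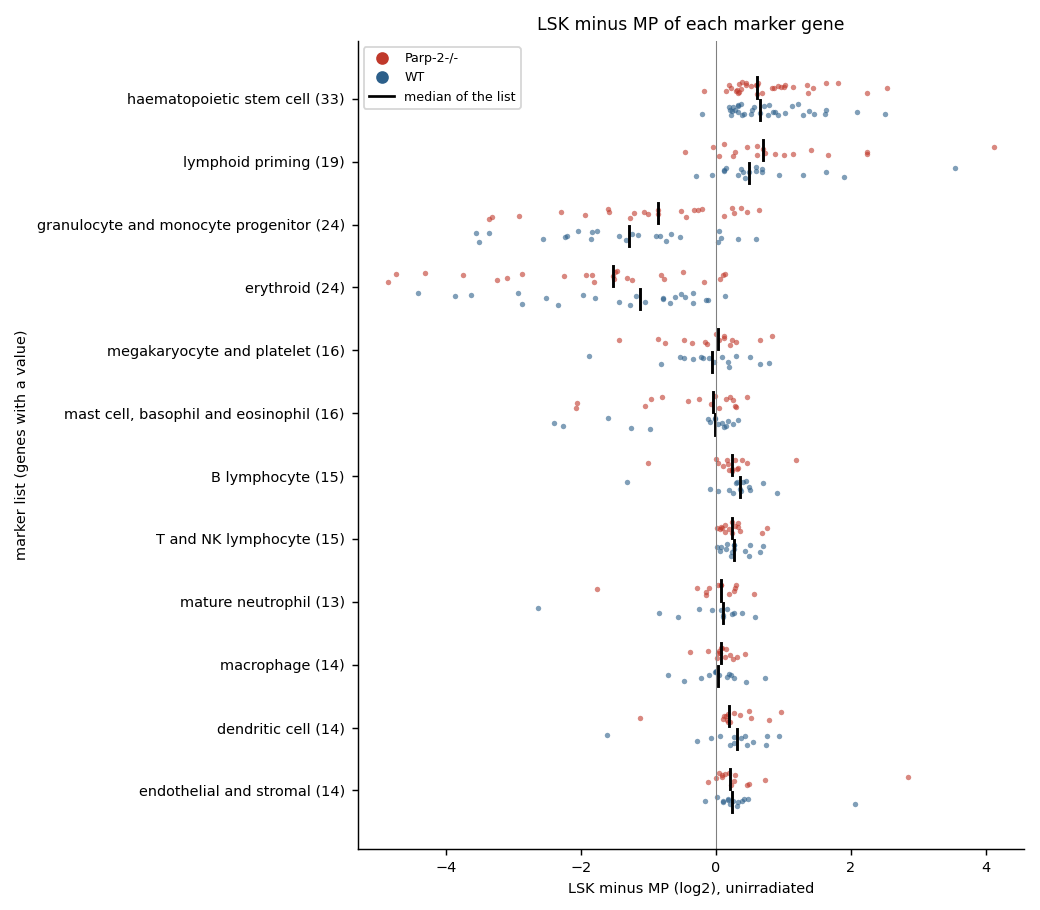
LSK minus MP log2 difference (horizontal axis) of each gene of 12 marker lists, with Parp-2-/- in red above WT in blue and a black bar at the list's median. The stem cell and lymphoid medians lie to the right of 0 (0.613 and 0.695 in Parp-2-/-), and the granulocyte-monocyte and erythroid medians to the left (-0.852 and -1.52), in both genotypes.

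Markers of mature cells that a sort could carry along gave few calls and small positive medians. The macrophage and mature neutrophil medians changed sign after quantile normalisation, to -0.037 and -0.0371. The median difference was 0.238 for T and NK, 0.237 for B, 0.197 for dendritic, 0.211 for endothelial and stromal, 0.0846 for macrophage and 0.0777 for mature neutrophil genes, beside 0.0857 over all tested rows. Differences were above 0 for 15 of 15 T and NK, 13 of 15 B, 13 of 14 dendritic, 13 of 14 endothelial and stromal, 12 of 14 macrophage and 8 of 13 neutrophil genes. The part of such cells in the LSK and MP difference was not tested. Of 15 B lymphocyte and 14 macrophage genes limma called 0 in either direction, with 2 and 0 at an unadjusted p under 0.05. Single genes were called in 4 further lists. These were Cd5 of 15 T and NK lymphocyte genes (0.76, higher in LSK), S100a8 of 13 mature neutrophil genes (-1.76), Itgax of 14 dendritic cell genes (0.79, higher) and Emcn of 14 endothelial and stromal genes, which is 6.67% to 7.69% of each list beside 3.34% of all rows. Itgax lay below the array medians in LSK and in MP, and it was called in 0 of the 4 fits that left out a pool (highest adjusted p = 0.266) and not after quantile normalisation (adjusted p = 0.0997). Cd5 was called in 1 of those 4 fits, S100a8 in 2 and Emcn in 4. On the T and NK list, 12 of 15 genes lay below their array medians in all 4 arrays, as did 9 of 15 on the B list and 10 of 14 on the macrophage list. The mean level of the T and NK list was 4.16 and 4.09 in LSK against 3.84 and 3.88 in MP, and that of the macrophage list 4.32 and 4.44 in LSK against 4.25 and 4.32 in MP. The array medians were 4.745 to 4.867, so these lists sat under the middle of the arrays in every pool. The defining T cell genes Cd3e and Cd3g and the defining B cell genes Cd79a and Ms4a1 lay below the median on all 4 arrays. Other members did not: Vpreb1 (5.19 to 6.99) and Cd72 (4.88 to 6.68) of the B list lay above it on all 4 arrays. So did Lat (6.16 to 7.24) of the T and NK list.

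Short stretches of promoter were read for genes at both ends of the difference, because the red cell and granule genes are textbook targets of GATA1 and PU.1. The sequences below are the 250 bases before the start taken for each gene's promoter in GRCm38.p6, given 5′ to 3′ on the gene's own strand. Capitals mark a match to one of 4 motifs searched on both strands: AGATAA or TGATAA for GATA factors, CACACCC for KLF1, GAGGAAG for PU.1 and TGATTTA for HOX-MEIS. Rhag, Ms4a3 and Hlf were taken as the called genes of their lists with the largest difference whose promoter was held, and Elane was added after its match was seen.
Rhag: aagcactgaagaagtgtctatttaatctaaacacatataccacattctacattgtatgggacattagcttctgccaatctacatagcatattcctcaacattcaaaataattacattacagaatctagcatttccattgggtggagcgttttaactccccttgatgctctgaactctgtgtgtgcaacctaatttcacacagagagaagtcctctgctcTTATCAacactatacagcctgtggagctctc
Ms4a3: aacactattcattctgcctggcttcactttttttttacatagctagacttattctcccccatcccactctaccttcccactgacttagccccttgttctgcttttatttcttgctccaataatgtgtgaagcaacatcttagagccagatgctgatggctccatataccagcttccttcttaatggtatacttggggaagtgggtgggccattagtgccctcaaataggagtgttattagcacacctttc
Elane: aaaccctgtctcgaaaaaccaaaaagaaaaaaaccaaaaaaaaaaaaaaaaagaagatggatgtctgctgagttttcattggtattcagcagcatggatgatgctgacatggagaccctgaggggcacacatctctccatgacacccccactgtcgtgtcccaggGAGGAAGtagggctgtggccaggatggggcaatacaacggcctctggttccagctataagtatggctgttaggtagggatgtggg
Hlf: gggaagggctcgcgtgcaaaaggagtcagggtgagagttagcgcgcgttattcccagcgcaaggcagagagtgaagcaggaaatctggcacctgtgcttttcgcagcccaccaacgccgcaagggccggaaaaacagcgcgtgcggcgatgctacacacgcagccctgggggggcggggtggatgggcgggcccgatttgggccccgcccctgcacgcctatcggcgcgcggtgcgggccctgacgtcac
The Rhag stretch, chr17:40810899-40811148 on the plus strand, holds 1 match, a TGATAA read on the minus strand that begins 31 bases before that promoter's start. The RefSeq range of the Rhag gene begins earlier, at 40811099, so the match lies inside that range. The Elane stretch, chr10:79886062-79886311 on the plus strand, holds 1 GAGGAAG beginning 85 bases before the start. Those of Ms4a3, chr19:11640852-11641101, and of Hlf, chr11:90390918-90391167, both on the minus strand, hold none of these letters. Over windows that also take in 50 bases after the start, a GATA motif stood in 11 of the 18 erythroid genes with a promoter in the table (61.1%), in 4 of 27 stem cell genes (14.8%) and in 0 of 19 granulocyte and monocyte genes, against 21.0% of all 27025 genes in the table. The PU.1 motif stood in 11 of 19 granulocyte and monocyte genes (57.9%), in 2 of 18 erythroid genes (11.1%) and in 3 of 27 stem cell genes (11.1%), against 15.4% of all genes. The erythroid genes with a GATA match were Epb42, Epor, Ermap, Hemgn, Icam4, Kel, Klf1, Rhag, Rhd, Tal1 and Trim10, of which 7 were called lower in LSK, while 12 of all 18 with a promoter were called. KLF1 and HOX-MEIS motifs were rarer, at 16.7% and 5.56% of erythroid genes against 9.05% and 3.47% of all genes. A match is a run of letters and not evidence of binding, and these genes were listed for their known lineage.

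The cell type difference was then set beside that of WT cells, measured on 4 other arrays, to see whether the identity programmes stood apart without Parp-2. Of the 768 rows called in Parp-2-/- cells, 749 had the same sign in WT and 394 were called in WT too, all with the same sign. The shared rows were 51.3% of the Parp-2-/- calls and 32.8% of the 1200 WT calls. The WT count depended on its pools as well, with 186 calls without WT MP pool 1, 319 without WT MP pool 2 and 488 without WT LSK pool 2. Over all 22961 rows, the signs matched for 78.2% and the 2 sets of differences correlated at r = 0.693, a description across genes that are not independent. Of 52 called genes on the 12 marker lists, 51 had the same sign in WT and 41 were called there. The one exception was Cd52, a surface glycoprotein of lymphocytes, with 0.88 in Parp-2-/- and -0.06 in WT.

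**Figure D3:**
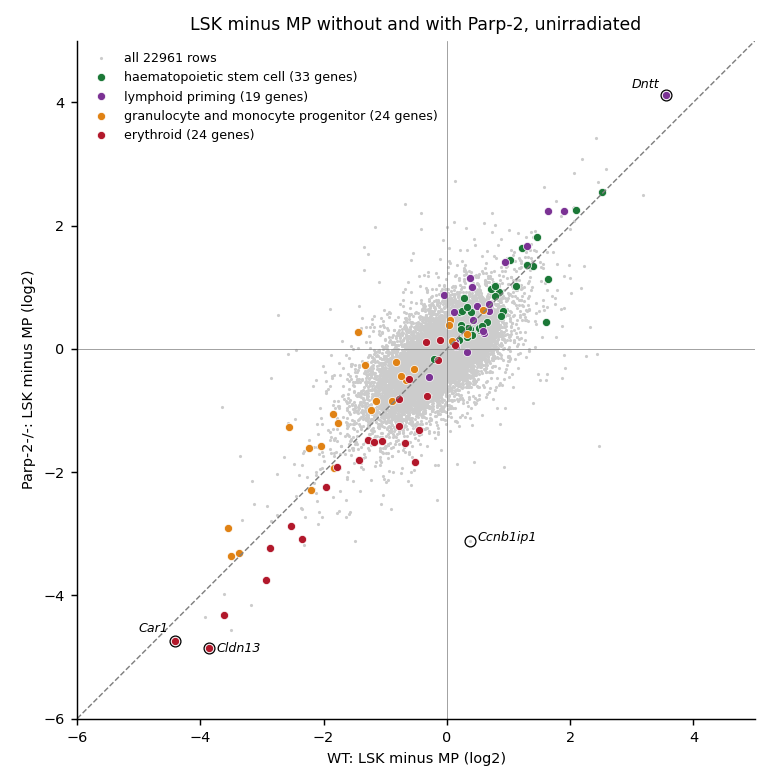
LSK minus MP log2 difference of each of 22961 rows in Parp-2-/- cells (vertical axis) against WT cells (horizontal axis), unirradiated, with 4 marker lists in colour and a dashed line of equal difference. Most stem cell and lymphoid genes lie in the upper right and most red cell and granulocyte-monocyte genes in the lower left, and Ccnb1ip1 lies alone, at -3.11 in Parp-2-/- and 0.38 in WT.

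The difference between the genotypes' differences was tested directly, as Parp-2-/- LSK minus MP less WT LSK minus MP. It was called at 1 of 22961 rows (0.00436%), Ccnb1ip1, while 890 rows had an unadjusted p under 0.05. Other rows joined it when Parp-2-/- LSK pool 1 (8 called), WT LSK pool 1 (5) or WT LSK pool 2 (2) was left out. Of 549 genes on the 25 lists 0 were called by limma, with 27 at an unadjusted p under 0.05. For the 52 called marker genes, the 95% interval of this difference had a median half-width of 0.821, and this interval is not adjusted for the number of rows tested, so a change had to be larger than that to be called. The interval left out 0 for 5 of them, with adjusted p of 0.879 or more. These were Icam4, an erythroid adhesion molecule (-1.84 in Parp-2-/-, -0.52 in WT), Igsf6, an immunoglobulin superfamily member of myeloid cells (-1.27 and -2.56), Add2, a red cell skeleton adducin (-1.32 and -0.46), Il7r (1.15 and 0.37) and Cd52. For Hlf the interval ran from -0.67 to 0.73 and for Elane from -1.02 to 1.12.

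The 2 myeloid lists leaned opposite ways between genotypes without a called gene. Of 24 erythroid genes 21 had a difference of differences below 0, with a median of -0.36. Of 24 granulocyte and monocyte genes 21 had one above 0, with a median of 0.297. The absolute LSK and MP difference was larger in Parp-2-/- than in WT for 21 of the 24 erythroid genes. It was larger for 6 of the 24 granulocyte and monocyte genes. Over all tested rows 11499 were below 0 and 11462 above, with a median of -0.000455. In MP cells, Parp-2-/- minus WT was above 0 for 19 erythroid genes (median 0.374) and below 0 for 23 granulocyte and monocyte genes (median -0.244), while in LSK cells the medians were -0.0657 and 0.0345. The pools overlapped between genotypes: the mean level of the erythroid list was 7.05 and 7.38 in Parp-2-/- MP against 6.55 and 7.23 in WT MP, and that of the granulocyte and monocyte list 7.77 and 7.55 in Parp-2-/- MP against 8.16 and 7.66 in WT MP. WT MP pool 1 was the lowest of the 4 on the first list and the highest on the second. The share of each progenitor type in a pool was not measured.

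**Figure D4:**
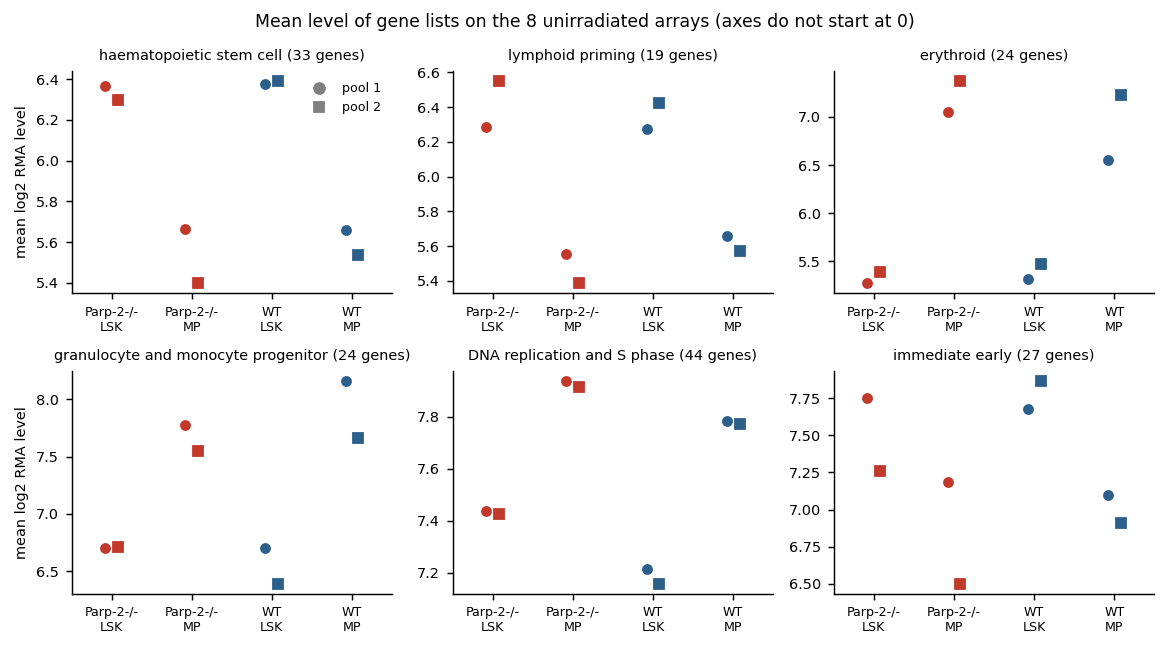
Mean log2 level over the genes of 6 lists (vertical axes, each with its own range and not starting at 0) on the 8 unirradiated arrays, with Parp-2-/- in red, WT in blue, pool 1 as circles and pool 2 as squares. LSK and MP pools are apart for all 6 lists in each genotype. The gap is narrow for the immediate early list in Parp-2-/-, which spreads between pools, at 7.75 and 7.26 in LSK and 7.18 and 6.50 in MP.

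Ccnb1ip1 encodes a RING finger protein that regulates cyclin B and is required for meiotic crossing over. Its level was 3.96 and 4.02 in Parp-2-/- LSK and 6.83 and 7.38 in Parp-2-/- MP, against 3.77 and 3.58 in WT LSK and 3.30 and 3.29 in WT MP. Among the unirradiated groups it was high in Parp-2-/- MP, and the other 3 groups lay below their array medians, so the fitted differences that follow may fall short and no fold is given. The cell type difference was -3.11 ± 0.19 in Parp-2-/- (adjusted p = 1.36e-05). In WT it was 0.38, between groups that both lay below the array medians. The difference between the genotypes in this LSK minus MP difference was -3.49 ± 0.27 (adjusted p = 0.00041). The irradiated pools showed the same order, with 4.49 and 4.51 in Parp-2-/- LSK and 6.93 and 6.91 in Parp-2-/- MP, against 3.45 and 3.89 in WT LSK and 3.31 and 3.48 in WT MP. The adjusted p of the difference between genotypes was 0.0524 when only the 8 unirradiated arrays entered the fit, and 0.000336 to 0.00612 with any 1 of them left out of the 16. Ccnb1ip1 lies on chromosome 14 close to Parp2: the RefSeq order in GRCm38.p6 is Ttc5, Ccnb1ip1, Rpph1, Parp2. Of neighbours looked up after this was seen, Ttc5 had 0.52 ± 0.43 in this test of LSK minus MP differences and Pnp 0.96 ± 0.48. Apex1 had 0.07 ± 0.26 and Osgep -0.11 ± 0.27, and none was called. A genotype difference shared by both cell types was not tested. Osgep had 7.30 and 7.40 in Parp-2-/- MP against 7.91 and 7.675 in WT MP. In LSK it had 7.15 and 7.45 without Parp-2 against 7.56 and 8.135 in WT. Pnp had 7.92 and 7.94 in Parp-2-/- MP against 8.71 and 8.51 in WT MP. Its LSK levels were 7.67 and 7.45 against 7.22 and 7.35 in WT. Unirradiated pools of Ttc5 and Apex1 overlapped between genotypes.

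**Figure D5:**
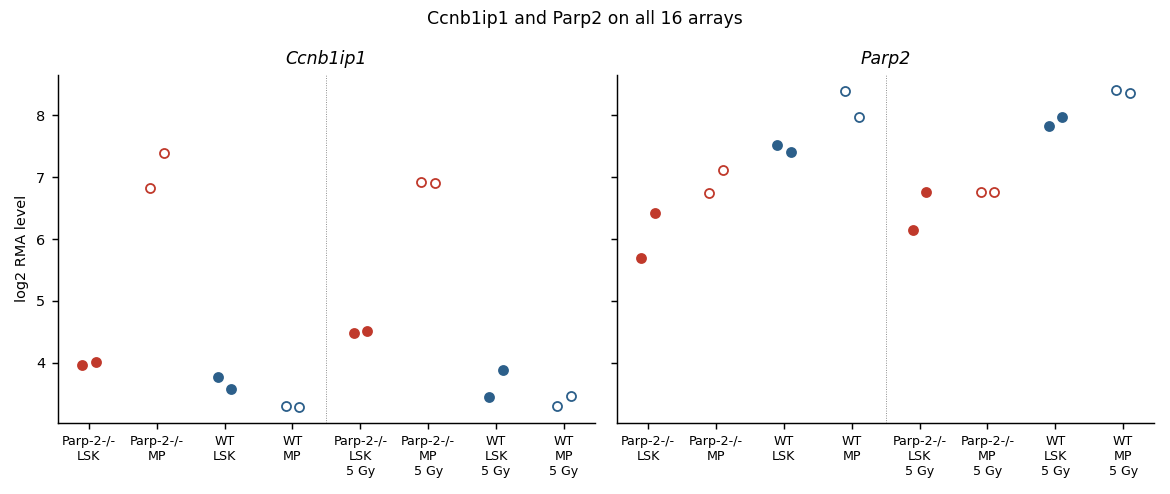
Log2 level (vertical axis, not starting at 0) of Ccnb1ip1 and Parp2 on all 16 arrays, with Parp-2-/- in red and WT in blue, LSK filled and MP open, 1 point per pool, unirradiated groups to the left of the dotted line and 5 Gy groups to the right. Ccnb1ip1 is at 6.83 or more in Parp-2-/- MP pools and at 4.51 or less in all others, and Parp2 is lower in all Parp-2-/- pools than in WT pools.

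The rows with the next smallest p in the test between genotypes were not called. Slc19a2, the thiamine transporter, had 3.81 and 3.31 in Parp-2-/- LSK and 5.39 and 5.52 in Parp-2-/- MP, against 5.59 and 4.96 in WT LSK and 5.42 and 5.40 in WT MP. The low values were those of Parp-2-/- LSK alone (-1.75 ± 0.33, adjusted p = 0.643). Plpp1, a lipid phosphatase, had -1.25, Gda, guanine deaminase, -1.69, Bdh2, a hydroxybutyrate dehydrogenase, -1.49 and Rps4l, a ribosomal protein gene, -1.16. Above 0 stood Acvr1b, an activin receptor, with 1.56, Atad1, an AAA ATPase, with 1.06, Rad54b, a recombination factor, with 1.05, Fggy, a carbohydrate kinase, with 1.51 and Micu2, a mitochondrial calcium uptake protein, with 1.48. The Fggy value is that of 1 of its 5 rows, and not of the row with the highest mean. A row of Iftap had 3.15 (adjusted p = 0.511) but the gene's brighter row had 0.58, so the rows disagreed.

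Genes of cell growth that were called in Parp-2-/- cells were all lower in LSK. Of 44 DNA replication genes, 40 had a difference below 0, with a median of -0.439, and 5 were called lower, 0 higher. In WT 12 were called lower and the median was -0.534. Ccne1, cyclin E1, had 6.03 and 6.08 in LSK against 7.67 and 7.68 in MP (-1.62 ± 0.27), and Gins1, a subunit of the replicative helicase, 6.52 and 7.37 in LSK against 8.38 and 8.47 in MP (-1.48 ± 0.29). Fen1, the flap endonuclease, and Orc1, of the origin recognition complex, differed by -1.49 and -1.29. These genes were high in both MP pools and low in both LSK pools. Of 35 mitosis genes 32 were below 0, with a median of -0.424, and 1 was called, Anln, the cytokinesis protein anillin (-1.18 ± 0.22). Of 25 ribosome biogenesis genes 24 were below 0, with a median of -0.467, and 5 were called lower. Utp20 and Wdr12, both assembly factors of ribosomal subunits, differed by -1.14 and -1.09. As shares the calls were 11.4% of the replication, 2.86% of the mitosis and 20% of the ribosome list, beside 3.34% of all rows. The mitosis share was thus not above that of all rows. Without MP pool 2, 0 of the replication, mitosis and ribosome genes were called. Without MP pool 1, 1 replication and 1 ribosome gene were called, without LSK pool 1 these were 2 and 3, and without LSK pool 2 they were 5 and 3.

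DNA repair and stress lists had 0 to 3 calls each. As shares these were 7.89% of the repair list, 7.14% of the PARP and of the interferon list, 6.25% of the p53 target list and of the cyclin D list and 0% of the BCL2 list, beside 3.34% of all rows. Of 38 double-strand break repair and Fanconi genes 3 were lower and 0 higher, Fancd2 (-1.14 ± 0.23), the recombination motor Rad54l (-1.06 ± 0.26) and the polymerase Polq (-1.06 ± 0.18), with a median of -0.351. In the PARP family and base excision repair, 2 of 28 were higher, Parp12 (1.08 ± 0.21) and Parp3 (0.58 ± 0.14), both ADP-ribosyltransferases, and the median was -0.0285. Parp1, the main family member, had 8.22 and 8.04 in LSK against 8.65 and 8.36 in MP (-0.38 ± 0.15, adjusted p = 0.212), and 0.02 in WT. Of 32 p53 target genes 2 were higher, Plk2 and the sestrin Sesn1 (0.86 ± 0.21). Of 18 genes of the BCL2 family and inhibitors of apoptosis, limma called 0 in either genotype (5 at an unadjusted p under 0.05 in Parp-2-/-), and 2 of 28 interferon-stimulated and MHC class I genes were higher, the RNA sensor gene Ddx58 (1.43 ± 0.36, adjusted p = 0.0498) and the GTPase gene Iigp1 (1.06 ± 0.25). Among 16 cyclin D and CDK inhibitor genes 1 was lower, the retinoblastoma gene Rb1 (-1.55 ± 0.28). Without MP pool 2, 0 genes of these 6 lists were called. Leaving out MP pool 1 or LSK pool 1 removed both calls of the PARP list, leaving out LSK pool 1 removed both p53 target calls, leaving out MP pool 1 left 1 of the 3 double-strand break repair calls, and 0 or 1 interferon calls remained without any 1 pool.

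Immediate early genes, which cells induce within minutes of a stimulus, had a difference above 0 for 24 of 27, with a median of 0.597, and 3 were called higher in LSK, Nr4a1, the signalling regulator Rgs1 (1.70 ± 0.37) and the phosphatase Dusp5 (1.10 ± 0.25). Without MP pool 2 or without LSK pool 1 the list had 0 calls, and without LSK pool 2 it had 5. With all pools the called share was 11.1% of the list, beside 3.34% of all rows. The level of the immediate early genes also differed between pools of 1 compartment. MP pool 2 was below MP pool 1 for all 27 genes and LSK pool 2 was above LSK pool 1 for 5. The mean levels were 7.75 and 7.26 in LSK against 7.18 and 6.50 in MP, so LSK pool 2 and MP pool 1 were close to each other. MP pool 2 was above pool 1 for 3 of 33 stem cell genes and for 17 of 24 erythroid genes too. The part of these pool differences in the list counts was not tested.

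In irradiated Parp-2-/- pools, 935 rows were called between LSK and MP (4.07%), 202 higher and 733 lower in LSK. Of the 768 rows called without irradiation, 726 had the same sign after it and 298 were called again, which is 38.8% of the unirradiated and 31.9% of the irradiated calls. Over all 22961 rows, the signs matched for 75.9%. The direct test of unirradiated less irradiated difference called 0 of 22961 rows in limma, with 1230 at an unadjusted p under 0.05 and a smallest adjusted p of 0.208. It called 10 rows without unirradiated LSK pool 1, 10 without irradiated LSK pool 1 and 4 without irradiated LSK pool 2. The irradiated count itself was 157 without MP pool 1, 123 without MP pool 2 and 537 without LSK pool 1. The identity genes Dntt (4.13 unirradiated, 3.37 irradiated), Hlf (2.54 and 2.56), Car1 (-4.74 and -3.91) and Elane (-3.32 and -1.71) had the same sign. Gfi1b, the called gene of the megakaryocyte list, did not (-0.85 and 0.11). Beside 0.88% of all rows called higher and 3.19% lower, the stem cell list gave 10 higher with a median of 0.578, the lymphoid list 6 higher with 0.328, the erythroid list 11 lower with -0.888 and the granulocyte and monocyte list 13 lower with -1.16. Of the mitosis list 14 of 35 were called lower in irradiated pools (median -0.651), beside 1 in unirradiated pools. None of the genes with the smallest p in the direct test was called. Below 0 these were Dmac2, an assembly factor of mitochondrial complex I (-0.12 unirradiated, 1.57 irradiated), Slc19a2 (-1.89 and 0.17), Plpp1 (-1.39 and 0.09) and the erythroid mitochondrial porphyrin transporter gene Tmem14c (-1.74 and -0.46). Also below 0 were Nop16 (-0.76 and 0.54) and Msl2 (-1.03 and 0.78). Above 0 stood the membrane protein gene Tmem19 (0.04 and -1.82), the zinc finger gene Zfp61 (-0.05 and -1.85) and Mcoln2 (2.62 and 0.55). With them were Fam114a1 (0.52 and -1.18) and 1 of the 3 rows of Kpna2 (-0.82 and -2.37). Vldlr, the last of the 6 taken above 0 by rule, had 2.22 and 0.29.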

How the data were processed

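Total RNA of sorted cell pools was extracted with RNeasy kits, amplified and hybridised, per the labels. The deposited values are log2 expression levels made by robust multi-array averaging (RMA), per the submitters' processing notes, which also name limma, affy 2.10 and R 2.15. Their range fits a log2 scale, and which arrays the authors normalised together is not given in the sources used here. RMA compresses differences of weak probe sets.

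Groups were taken from the array titles. The pools are separate samples by their labels, but p-values measure the spread between pools only. Of 34760 rows, the 22961 with at least 1 gene symbol in the platform annotation were tested (21640 with 1 symbol, 1321 with several, 11799 with none). A model of 8 group means was fitted to all 16 arrays with limma 3.58.1 (R 4.3.3) and its empirical Bayes step. Differences are LSK minus MP with standard errors, two-sided, with Benjamini-Hochberg adjustment over 22961 rows, and called at an adjusted p under 0.05. All columns of the table were mapped to samples. Levels under the array median were taken as not shown above background. The procedure was tested on simulated data.

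The genes and the 25 lists (616 entries, 569 with a value) were chosen with earlier results of these data known. Named were Parp2, Parp1, Ly6a, Kit, Cd34 and Fcgr3, and the 15 largest called rises and falls among rows without overlap between the compartments. Also named were at most 5 genes from each list (those with the largest differences), and 6 genes each way for both tests between differences. Other list members named were chosen after their values were seen. The row with the highest mean stood for a gene, save that genes named from the tests between differences were read at their row with the smallest p. Promoter sequences are from RefSeq (GRCm38.p6). Alternatives were other sets of arrays, quantile normalisation, a filter on dim rows, all rows, trended and robust empirical Bayes, the pool number as a block, and leaving out each array.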

Additional observations from a re-analysis of the deposited data

Results flagged for a closer look

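The LSK minus MP difference of Ccnb1ip1 differed between the genotypes by -3.49 on the log2 scale, the only one of 22961 rows for which limma called this difference (adjusted p = 0.00041). The level was 6.83 and 7.38 in the 2 Parp-2-/- MP pools and at most 4.02 in the 6 other unirradiated pools, all below their array medians, so the size may fall short of the true one.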

How the results depend on the processing

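The number of arrays limits what could be called, and the counts moved far more than the directions. A fit to the arrays of each comparison alone called 119 unirradiated Parp-2-/-, 51 WT and 97 irradiated Parp-2-/- rows between LSK and MP, and 0 in the test between genotypes (smallest adjusted p = 0.0524, with 930 rows at an unadjusted p under 0.05), where fewer arrays estimate the spread. The 8 unirradiated arrays gave 352 Parp-2-/- and 606 WT rows. Testing all rows of the table, with more tests to adjust for, gave 413 unirradiated Parp-2-/-, 641 WT and 488 irradiated Parp-2-/- rows. Quantile normalisation once more gave 519 unirradiated Parp-2-/- rows (177 higher and 342 lower in LSK, 65.9% lower against 75.3% before), 726 WT rows (274 higher and 452 lower in LSK, 62.3% lower against 75.2% before) and 534 irradiated Parp-2-/- rows, and the cause was not tested. With 1 pool left out, and a lone pool assumed to vary like the other groups, the counts ran from 88 to 605 in unirradiated Parp-2-/-, 186 to 1614 in WT, 123 to 1325 in irradiated Parp-2-/-, 1 to 8 in the test between genotypes and 0 to 10 in the test between irradiation states. The filter on dim rows and the trended, robust empirical Bayes step kept all 5 counts within 1.5 times. Same-numbered Parp-2-/- LSK and MP pools deviated from their group means with r = 0.111, and 2 of 28 group pairs, theirs among them, exceeded 0.1. Whether a shared number marks shared mice is not known, and the numbers were not used as pairs. The replicate block gave 731 unirradiated Parp-2-/- rows (680 of them among the 768), 1101 WT, 888 irradiated Parp-2-/-, 1 in the test between genotypes and 0 in the test between irradiation states. Of 73 called genes named by rule, 29 to 69 stayed called under other settings, all 71 that passed the filter on dim rows did, 26 to 55 with 1 pool left out and 25 under all 4 omissions, and 0 changed sign. The medians of the stem cell, lymphoid, erythroid and granulocyte-monocyte lists kept their sign in 12 of 12 settings. Those of the megakaryocyte, mature neutrophil and cyclin D lists kept it in 10 of 12. Medians of the basophil and mast cell, macrophage and p53 target lists kept it in 11 of 12. Among single genes named by rule, sign changes met only those that were not called. Leaving out 1 pool gave -0.626 to 0.0591 for Cxcr2, -0.0104 to 0.636 for Cd5l, -0.000303 to 0.510 for Cd68 and -0.155 to 1.198 for Cd74. The other sign came without Parp-2-/- MP pool 1 for Cxcr2 and without Parp-2-/- LSK pool 2 for the other 3 genes.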
